A study of Homo sapiens with 6 samples.

Results

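The transcripts of 9 genes of nucleic acid sensing were followed in MDA-MB-453 cells that had been transfected either with a control vector or with a construct for overexpression of ZNF207. They were taken by name from the deposited expression table: the RNA sensors RIGI (listed there under its older symbol DDX58), IFIH1, DHX58 and TLR3, the DNA sensor CGAS, the adaptors MAVS and STING1, the RNA-activated kinase EIF2AK2 and the RNA-editing enzyme ADAR. All 9 were found among 60569 gene names, and 7 of the 9 passed the filter on low values that left 13185 genes for testing. MDA-MB-453 is an established human breast cancer line, and each group held 3 libraries described in the design text as separate biological replicates. The labels give no time after transfection, no vector type and no untransfected cells, so the act of transfection is common to both groups and was not compared with anything.

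Cells detect foreign or misplaced nucleic acid through a small set of receptors. In the cytosol, RIG-I binds short RNA ends that carry a triphosphate, MDA5 (the product of IFIH1) binds long double-stranded RNA, and LGP2 (DHX58), which lacks the signalling domain of its relatives, tunes both. RIG-I and MDA5 signal through MAVS on mitochondria. TLR3 reads double-stranded RNA in endosomes, while cGAS reads DNA in the cytosol and makes a cyclic dinucleotide that activates STING. The outcome of each route is transcription of interferons, and interferon in turn raises the transcription of most of these sensors. PKR (EIF2AK2) halts translation when it binds double-stranded RNA, and ADAR edits adenosines in such RNA, which keeps the cell's own transcripts from being sensed.

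Short stretches of the promoters are shown first, because an interferon-inducible gene usually carries binding sites for interferon regulatory factors near its start. The windows run from 250 bases before to 50 after each start in RefSeq (GRCh38.p14), and 6 of the 9 genes had at least 1. They were searched on both strands for the core of the interferon-stimulated response element (GAAA, 2 bases of any kind, then GAAA), and the capitals below mark the match.

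IFIH1, chr2:162318685-162318725, minus strand: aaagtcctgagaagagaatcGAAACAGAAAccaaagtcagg

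EIF2AK2, chr2:37156967-37156996, minus strand: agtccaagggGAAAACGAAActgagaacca

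TLR3, chr4:186069142-186069171, plus strand: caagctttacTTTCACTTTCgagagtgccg

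The motif was found in 3 of the 6 genes with a window, against 4.38% of the 27305 genes in the table. The match in EIF2AK2 lay from 6 bases before to 3 after the RefSeq start, that in TLR3 from 4 before to 5 after, and the one printed for IFIH1 from 21 to 12 bases before it. IFIH1 held 2 more matches, which overlap each other, between 159 and 144 bases before the start. In TLR3 the capitals are the motif read on the other strand. RIGI had no match to this motif, but held the shorter AANNGAAA, which is contained in that core and was added after the sequences were seen.

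RIGI, chr9:32526371-32526418, minus strand: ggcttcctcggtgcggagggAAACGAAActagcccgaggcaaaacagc

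That shorter motif was in 4 of the 6 genes and in 26.7% of all genes in the table. The 3 genes with the longer core had to match it, so these shares cannot be compared. MAVS and ADAR had neither motif in their windows. The GAS motif TTCNNNGAA was found in TLR3 alone of the 6 genes, at 2 places, and in 9.38% of all genes. These matches are descriptions of letters, and no binding was measured.

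The members spanned more than 3 orders of magnitude in level. Values are FPKM, fragment numbers divided by transcript length and library size, so they can be compared between genes. Over the 6 libraries ADAR stood at 227 to 256 FPKM, EIF2AK2 at 188 to 220, IFIH1 at 107 to 140 and RIGI at 63.3 to 79.5, and no range touched the next. MAVS (16.2 to 18.2 FPKM) and DHX58 (11.1 to 17.9 FPKM) overlapped, with MAVS above DHX58 in 5 of 6 libraries. TLR3 lay lower, at 3.74 to 6.85 FPKM. The cGAS and STING transcripts were close to absent: CGAS reached at most 0.324 FPKM and STING1 at most 0.178 FPKM, and these last 2 overlapped. By mean level ADAR exceeded 97.6% of tested genes and IFIH1 94.5%, whereas MAVS sat near the middle at 55.6% and TLR3 exceeded 26.2%.

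**Figure D1:**
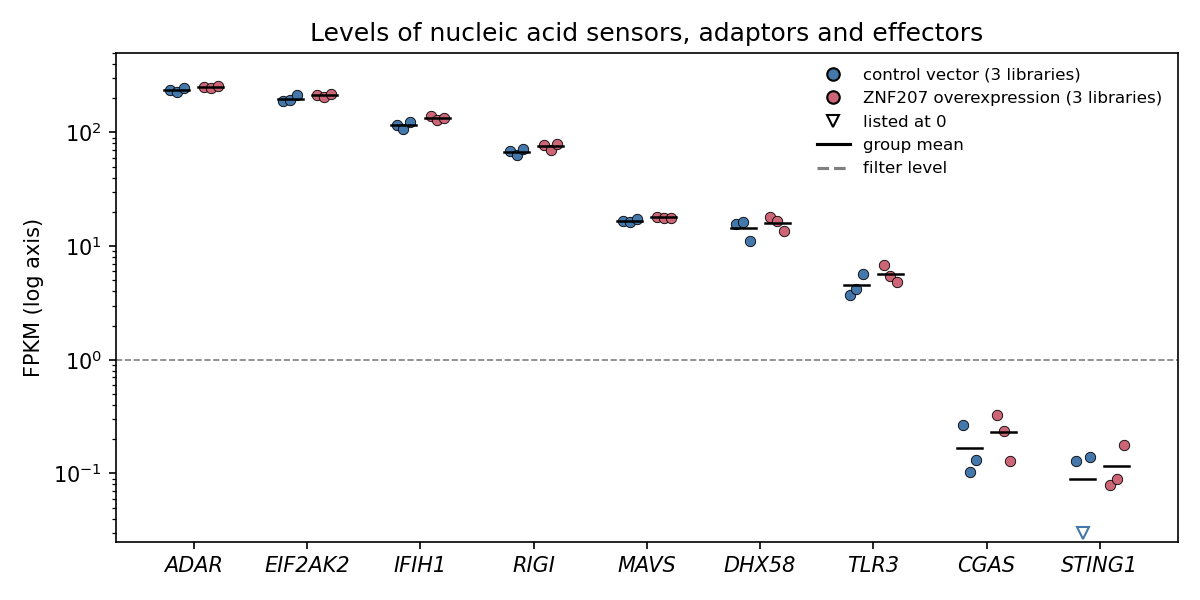
FPKM on a log axis for the 9 genes, ordered by mean; each point is a library, the short bar a group mean, the open triangle a value listed at 0 and the dashed line the filter level of 1 FPKM. Cytosolic RNA sensors, PKR and ADAR lie above 60 FPKM except DHX58, and both genes of the DNA-sensing route lie below 1 FPKM in all 6 libraries.

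The targeted gene and the markers of the line were read first. ZNF207 stood at 63.7 to 69.2 FPKM in the controls and at 750 to 885 FPKM with the ZNF207 construct (log2 change 3.58, SE 0.07, limma adjusted p = 4.03e-09). Of 12 luminal markers listed for the line, 11 passed the filter, and TFAP2B did not (0.113 to 0.254 FPKM). None of 12 white blood cell markers passed it, and their summed level was 1.72 to 2.01 FPKM with the control vector and 1.34 to 2.21 FPKM with the ZNF207 construct. PTPRC, which marks nearly all white blood cells, had 0 FPKM in each control library and 0.0157 to 0.0531 FPKM in the others. Of 9 fibroblast and endothelial markers only COL1A1 passed. In bulk RNA, fewer cells with a transcript and less transcript per cell cannot be told apart. FPKM summed to 589360 to 612711 per library, and read depth is unknown.

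The comparison asked whether the sensing genes differed between cells with the ZNF207 construct and cells with the control vector. None of the 7 tested members passed the test over all genes, where 28 of 13185 did (0.212%; 7 higher, 0.0531%, and 21 lower, 0.159%). Rescaling moved that split, to 8 higher and 12 lower with quantile scaling. All 7 estimates lay above 0, from 0.08 to 0.28 on the log2(FPKM + 1) scale, with a median of 0.16 beside -0.01 for all tested genes, of which 47.6% were above 0. At an unadjusted p under 0.05 there were 2 members, both with higher means, IFIH1 and RIGI, against 5.08% of tested genes that were higher at that level, and 0 members were lower, against 7.03% of genes. The count of higher members depended on the setting. It was 1 with 0.1 FPKM added in place of 1 (674 of 13185 genes) and 4 without control replicate 3 (856 of 13034 genes). The 7 members share their libraries, and most are known to respond to interferon together, so the 7 estimates are not 7 separate observations. With 3 libraries a group, the smallest p of an exact permutation test is 0.1, and it was not used for single members.

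IFIH1 (chromosome 2, 162267079 to 162318703, minus strand, GENCODE v29 on GRCh38) stood at 117, 107 and 124 FPKM in control replicates 1 to 3 and at 140, 129 and 135 FPKM with the ZNF207 construct. Every overexpression library lay above every control. The means were 116 ± 8.20 and 135 ± 5.57 FPKM (SD, n = 3 each), a 16.3% difference, with a log2 change of 0.22 (SE 0.06, limma unadjusted p = 0.00686, adjusted p = 0.21). Its 95% interval ran from 1.05-fold to 1.28-fold. Only 3.25% of tested genes had a smaller p, yet none of the 17 alternative settings brought it past the threshold (adjusted p 0.0793 to 0.526).

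RIGI (chromosome 9, 32455705 to 32526324, minus strand) was lower than IFIH1 in level and close to it in direction. It stood at 69.1, 63.3 and 71.4 FPKM with the control vector and at 78.3, 69.9 and 79.5 FPKM with the ZNF207 construct. Overexpression replicate 2 fell inside the control range. The log2 change was 0.16 (SE 0.07, limma unadjusted p = 0.0489, adjusted p = 0.41), with a 95% interval from 1.00-fold to 1.24-fold. That unadjusted limma p was 0.0503 with 0.1 FPKM added in place of 1 and 0.0972 without a mean-variance trend, but 0.0296 with TPM scaling.

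DHX58 (chromosome 17, 42101404 to 42112733, minus strand), the third of this helicase family, had a wide spread. It stood at 15.7, 16.3 and 11.1 FPKM with the control vector and at 17.9, 16.5 and 13.7 FPKM with the ZNF207 construct, so the groups overlapped, and replicate 3 was the lowest of each group. The log2 change of 0.16 (SE 0.14, limma adjusted p = 0.71) became -0.01 without control replicate 3. Its 95% interval, 0.89-fold to 1.398-fold, leaves room for a difference either way.

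TLR3 (chromosome 4, 186069152 to 186088069, plus strand) had the largest estimate and the least precise one. It stood at 3.74, 4.198 and 5.65 FPKM with the control vector and at 6.85, 5.45 and 4.81 FPKM with the ZNF207 construct. Control replicate 3 lay above 2 of the 3 overexpression libraries. The log2 change was 0.28 (SE 0.16, limma adjusted p = 0.516; 95% interval 0.95-fold to 1.55-fold), and with values this low the added 1 FPKM shrinks the estimate.

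The DNA-sensing pair was not tested. CGAS (chromosome 6, 73413515 to 73452276, minus strand) stood at 0.266, 0.104 and 0.130 FPKM with the control vector and at 0.324, 0.238 and 0.130 FPKM with the ZNF207 construct. The groups overlapped, and each library was under 1 FPKM. STING1 (chromosome 5, 139475534 to 139482935, minus strand) stood at 0.129 and 0.138 FPKM and was listed at 0 in controls, and stood at 0.0796, 0.0903 and 0.178 FPKM with the ZNF207 construct. The table gives CGAS the same locus as 5 other genes, among them DDX43, whose annotation overlaps it on the other strand, so part of its low value could belong to a neighbour. In a fit without a filter, neither gene passed (limma adjusted p = 0.801 for CGAS and 0.878 for STING1).

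MAVS (chromosome 20, 3846799 to 3876123, plus strand) is the adaptor of RIG-I and MDA5. It stood at 16.6, 16.2 and 17.5 FPKM with the control vector and at 18.2, 17.6 and 17.8 FPKM with the ZNF207 construct. The groups did not overlap, but the gap was small: the highest control and the lowest overexpression library were 17.5 and 17.6 FPKM. The means were 16.8 ± 0.643 and 17.9 ± 0.284 FPKM (SD, n = 3 each; log2 change 0.09, SE 0.07, limma adjusted p = 0.65). The 95% interval ran from 0.96-fold to 1.18-fold on the FPKM + 1 scale, before any adjustment for the number of genes tested.

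EIF2AK2 (chromosome 2, 37099210 to 37157065, minus strand) stood at 188, 195 and 212 FPKM with the control vector and at 213, 206.8 and 220 FPKM with the ZNF207 construct. Control replicate 3 lay above overexpression replicate 2, so the groups overlapped. The log2 change was 0.11 (SE 0.06, limma adjusted p = 0.506; 95% interval 0.98-fold to 1.18-fold). The table gives it the same locus as GPATCH11 and ARL14EPP1, and GPATCH11, at 7.27 to 8.55 FPKM, overlaps it on the other strand.

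ADAR (chromosome 1, 154582057 to 154628013, minus strand) stood at 237, 227 and 247 FPKM with the control vector and at 249, 244 and 256 FPKM with the ZNF207 construct. Control replicate 3 again lay above overexpression replicate 2. It had the smallest estimate and the narrowest interval of the members, a log2 change of 0.08 (SE 0.05, limma adjusted p = 0.606; 95% interval 0.97-fold to 1.14-fold). The table holds 1 value for the gene, so the constitutive and the interferon-inducible ADAR proteins, which come from different promoters, cannot be told apart.

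**Figure D2:**
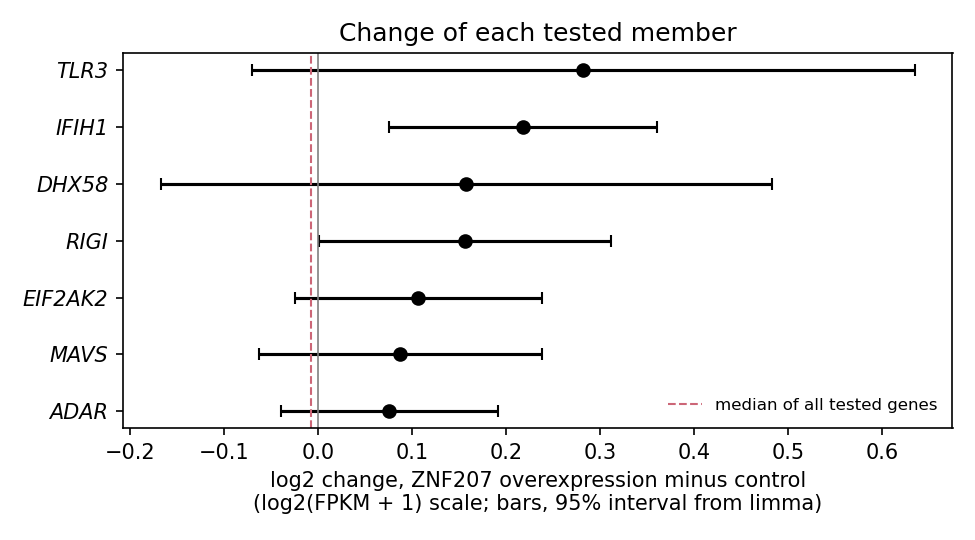
Log2 change of the 7 tested members (ZNF207 overexpression minus control, log2(FPKM + 1) scale) with 95% intervals from limma; the dashed line is the median of all tested genes, -0.01. All estimates are above 0, and the intervals of IFIH1 and RIGI alone do not reach below 0, before any adjustment for the number of genes tested.

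IFIH1 and MAVS were the 2 members whose groups did not overlap, against 7.61% of tested genes that were higher in this way. No member was lower in this way, against 10.4% of genes. That count depended on single libraries and on scaling. Control replicate 3 was the highest control for 6 of the 7 members, all but DHX58, and without it 6 members did not overlap (16.3% of genes). Without overexpression replicate 2, the lowest of its group for 5 members, 5 did not (12.6% of genes), and without overexpression replicate 3 it was 3 (10.3%). Rescaling to TPM gave 5 (1433 of 14327 genes) and median-of-ratios scaling 4 (9.68%). IFIH1 and MAVS remained apart under TPM, median-of-ratios and quantile scaling. Leaving out a library cannot make groups that are apart overlap.

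**Figure D3:**
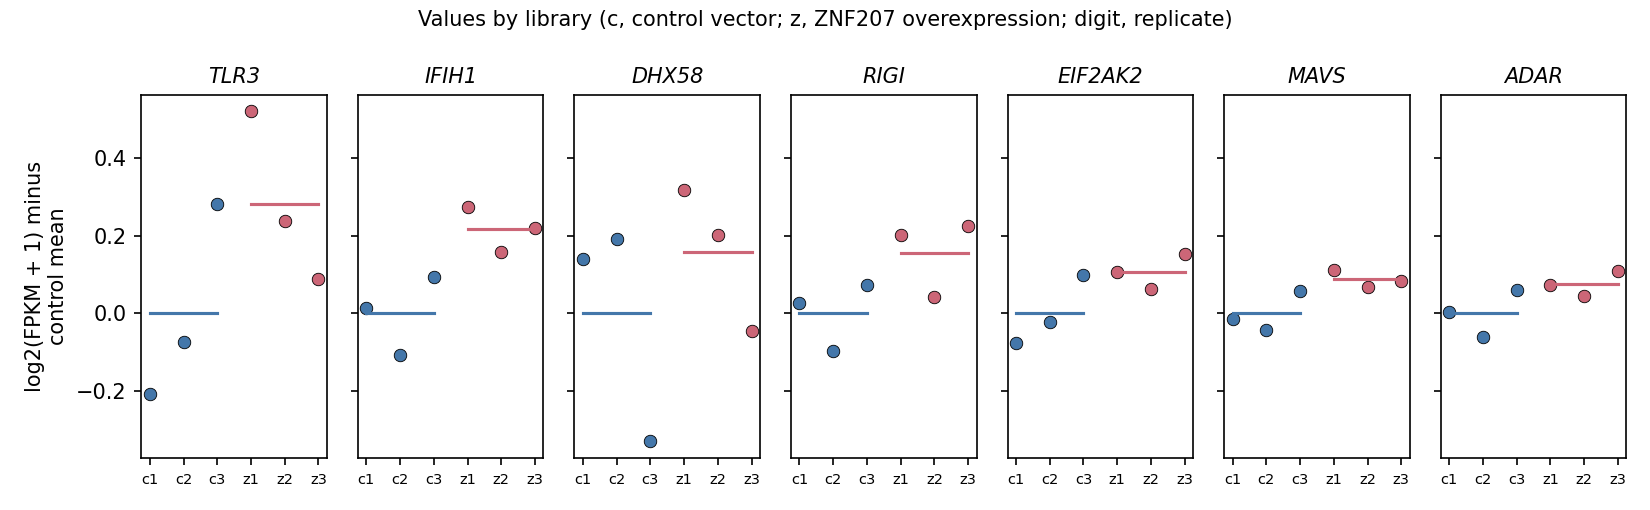
Log2(FPKM + 1) of each tested member minus its control mean, by library (c1 to c3, control vector; z1 to z3, ZNF207 overexpression); lines are group means. The third control is the highest control in 6 panels and the lowest in that of DHX58.

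Ratios within a library do not depend on a single scaling factor per library. The 7 ratios computed were chosen after the values were seen and are given as descriptions. ADAR to IFIH1 was 2.03, 2.11 and 2.00 in controls and 1.78, 1.89 and 1.89 in overexpression libraries, without overlap. IFIH1 to MAVS was 7.06, 6.62 and 7.08 in controls and 7.73, 7.34 and 7.59 in overexpression libraries, again without overlap. IFIH1 to RIGI was 1.69, 1.70 and 1.73 against 1.79, 1.85 and 1.70, and the groups overlapped. ADAR to EIF2AK2 varied least, between 1.16 and 1.26 over the 6 libraries. EIF2AK2 to IFIH1 was 1.60, 1.81 and 1.71 against 1.52, 1.60 and 1.63, and overlapped. DHX58 to IFIH1 and RIGI to MAVS also overlapped, so 2 of the 7 ratios were apart. Both of these contain IFIH1, whose own groups were apart, so they are not separate observations. How often ratios of other gene pairs are apart was not computed.

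For the 2 members without overlap, the genes with the most similar profile were sought by the root-mean-square distance between centred log2 values over the 6 libraries. For IFIH1 they were PARP9 (distance 0.0151), CPT1A (0.0163) and SIDT1 (0.0247), where IFIH1 itself deviated from its mean by 0.129. For MAVS they were TUBA1C (0.00666), COPS4 (0.00904) and ATPAF1 (0.0112), where MAVS deviated by 0.0545. Within a distance of 0.05 there were 59 genes for IFIH1 and 618 for MAVS. That distance is close to the whole deviation of MAVS, 0.0545, but well below that of IFIH1, 0.129, so these counts cannot be compared.

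The genes around the sensors were read from lists by role. Each count at an unadjusted p under 0.05 stands beside 5.08% of all tested genes higher and 7.03% lower at that level. Of 18 regulators and cofactors of RIG-I-like receptors, 0 passed the test by limma (before adjustment, p was under 0.05 for 2 with higher and 2 with lower means), and the median log2 change was -0.02. YWHAH, a 14-3-3 protein, stood at 112 ± 2.89 FPKM with the control vector and 94.8 ± 0.967 FPKM with the ZNF207 construct (adjusted p = 0.0886), and its groups did not overlap. DDX60, an interferon-induced helicase, stood at 59.4 ± 4.85 and 71.1 ± 2.85 FPKM (adjusted p = 0.163). RNF122, a ubiquitin ligase, stood at 4.32 ± 0.217 and 3.35 ± 0.459 FPKM (adjusted p = 0.356). The list had no common direction, with 7 estimates above 0 and 11 below.

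Below the adaptors, 0 of 20 signal transducers passed by limma (before adjustment, p was under 0.05 for 3 higher and 1 lower; median 0.05). MYD88, the adaptor of most Toll-like receptors other than TLR3, stood at 51.8 ± 6.92 and 62.4 ± 4.56 FPKM (adjusted p = 0.29), and TANK, a scaffold for TBK1, at 26.1 ± 1.96 and 29.8 ± 2.06 FPKM (adjusted p = 0.38). IKBKB, a kinase of the NF-kB route, stood at 12.6 ± 1.91 and 10.3 ± 0.851 FPKM (adjusted p = 0.39). TBK1, the kinase that MAVS, STING and the TLR3 adaptor TICAM1 share, was present at 42.9 to 47.1 FPKM in the 6 libraries, its substrate IRF3 at 54.4 to 61.1 FPKM and TICAM1 at 7.14 to 8.57 FPKM. Transcripts for each step from RNA sensor to transcription factor were thus present in both groups.

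Several other sensors were close to absent. Of 14 such genes, 7 did not pass the filter, and TLR7 and AIM2 were listed at 0 in all 6 libraries. TLR8 and TLR9 were each listed at 0 in all libraries but 1, and the DNA sensor IFI16 reached at most 0.294 FPKM. Among the 7 tested, 0 passed by limma (before adjustment, p was under 0.05 for 2 higher and 1 lower; median -0.03). DDX41, a helicase reported as a DNA sensor, stood at 74.6 ± 7.07 and 58.3 ± 4.49 FPKM (adjusted p = 0.122). IFIT1, which binds RNA without a host cap, stood at 225 ± 9.46 and 257 ± 13.9 FPKM (adjusted p = 0.236), and IFIT5 at 39.1 ± 2.52 and 44.7 ± 3.03 FPKM (adjusted p = 0.33).

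The 2-5A synthetases OAS1, OAS2 and OAS3, like PKR, are activated by double-stranded RNA, and their product switches on RNase L. OASL is a relative without that enzyme activity. OAS2 and OASL had larger estimates than any member. Of 7 genes of this route 0 passed by limma (before adjustment, p was under 0.05 for 4 higher and 0 lower; median 0.18), beside 5.08% of all tested genes that were higher at that level, and 4 were higher without overlap, beside 7.61% of all tested genes. OAS2 stood at 136 ± 18.1 and 186 ± 17.1 FPKM (log2 change 0.45, SE 0.10, adjusted p = 0.0992), OASL at 64.9 ± 4.29 and 86.9 ± 8.39 FPKM (0.41, SE 0.08, adjusted p = 0.0786) and OAS1 at 200 ± 13.5 and 233 ± 5.73 FPKM (0.23, SE 0.06, adjusted p = 0.162). Of 16 inhibitors, activators and relatives of PKR, 0 passed by limma (2 higher at an unadjusted p under 0.05; median 0.03). In that list EIF2B3, a subunit of the factor that PKR signalling blocks, stood at 6.16 ± 0.324 and 7.88 ± 0.670 FPKM (adjusted p = 0.237), PPP1R15A, which reverses the block, at 29.6 ± 3.74 and 34.0 ± 0.880 FPKM (adjusted p = 0.393), and DNAJC3, a PKR inhibitor, at 16.8 ± 1.21 and 19.3 ± 1.57 FPKM (adjusted p = 0.418).

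Among other RNA-editing and double-stranded RNA-binding genes, 0 of 9 tested passed, also at an unadjusted p under 0.05 (limma; median -0.01). DGCR8, a partner of DROSHA in microRNA processing, stood at 17.5 ± 0.946 and 15.8 ± 0.762 FPKM (adjusted p = 0.492) and STAU2, an RNA transport protein, at 35.5 ± 3.73 and 39.3 ± 3.98 FPKM (adjusted p = 0.593). Of 13 tested nucleases and helicases that remove nucleic acid ligands, 0 passed by limma (before adjustment, p was under 0.05 for 2 higher and 1 lower; median 0.02). SAMHD1, which degrades deoxynucleotides, had the largest estimate there, at 40.8 ± 4.52 and 53.8 ± 2.97 FPKM (log2 change 0.40, SE 0.08, adjusted p = 0.0985). PNPT1, a mitochondrial RNA exonuclease, stood at 75.6 ± 5.64 and 84.6 ± 3.77 FPKM (adjusted p = 0.37) and RNASEH2A, a subunit of RNase H2, at 111 ± 9.45 and 99.6 ± 1.99 FPKM (adjusted p = 0.388). Of 13 tested regulators of cGAS and STING, 0 passed, also at an unadjusted p under 0.05 (limma; median 0.00). Its 3 genes of smallest p were ZDHHC3 (29.5 ± 2.53 and 33.5 ± 2.53 FPKM, adjusted p = 0.422), ABCC1 (21.5 ± 1.63 and 19.0 ± 0.904 FPKM, adjusted p = 0.431) and ZDHHC7 (91.1 ± 1.73 and 86.3 ± 0.664 FPKM, adjusted p = 0.565).

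IFNB1 and the interferon-lambda genes IFNL1, IFNL2 and IFNL3 were transcribed in both groups, controls included, whereas IFNA1, IFNA2, IFNE and IFNK were each at or under 0.277 FPKM in every library. IFNB1, the interferon-beta gene, stood at 29.5, 22.8 and 22.3 FPKM with the control vector and at 37.8, 39.1 and 30.8 FPKM with the ZNF207 construct, without overlap (log2 change 0.51, SE 0.12, limma adjusted p = 0.125). IFNL2, an interferon-lambda gene, stood at 46.4, 36.0 and 34.7 FPKM with the control vector and at 63.7, 62.5 and 55.3 FPKM with the ZNF207 construct (0.63, SE 0.11, adjusted p = 0.0548), again without overlap. IFNL3 stood at 30.7 ± 5.62 and 44.2 ± 4.96 FPKM (0.52, SE 0.12, adjusted p = 0.129). IFNL2 and IFNL3 are near-identical copies, so reads may have been divided between them. Of the 20 tested genes for interferons, their receptors and transducers, 0 passed by limma (median log2 change 0.11). Before adjustment, p was under 0.05 for 7 higher and 0 lower, beside 5.08% and 7.03% of all tested genes. IFNL2 and IFNL3 are both among those 7 and may not be separate observations. The subunit IFNLR1 of the interferon-lambda receptor did not pass the filter (0.329 to 0.887 FPKM), while IFNAR1 and IFNAR2 of the receptor for interferon-beta stood at 26.7 to 39.2 and 3.35 to 4.13 FPKM.

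Of 16 transcripts that the sensors are known to induce, 1 rose, HERC6, and 0 fell, beside 0.0531% and 0.159% of all tested genes. By limma before adjustment, p was under 0.05 for 11 higher and 0 lower (median log2 change 0.29), beside 5.08% and 7.03% of all tested genes. HERC6 stood at 37.8, 37.2 and 39.6 FPKM with the control vector and at 55.4, 50.9 and 53.0 FPKM with the ZNF207 construct (log2 change 0.46, SE 0.06, adjusted p = 0.0196). Its call ended in 5 of 17 alternatives: without a filter, without a variance trend, and after removal of control replicate 2 or of replicate 1 or 3 of the overexpression group. RSAD2, the antiviral enzyme viperin, stood at 5.12 ± 0.734 and 8.51 ± 0.765 FPKM (adjusted p = 0.0714), and MX2, a dynamin-like antiviral GTPase, at 6.09 ± 0.766 and 10.1 ± 1.65 FPKM (adjusted p = 0.0883). In the list, 13 estimates lay above 0 and 3 below, those of MX1, IFI6 and IFI27. The lists were drawn up with earlier results on interferon-induced genes in these libraries known, so this direction is no independent evidence. On the log2(FPKM + 1) scale the estimates of the 7 tested sensing genes, 0.08 to 0.28, lay below the median of this list. This difference was not tested. For TLR3, at 0.28, the margin was small. Its estimate was 0.33 with 0.1 FPKM added in place of 1, a setting at which the list median was not computed.

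**Figure D4:**
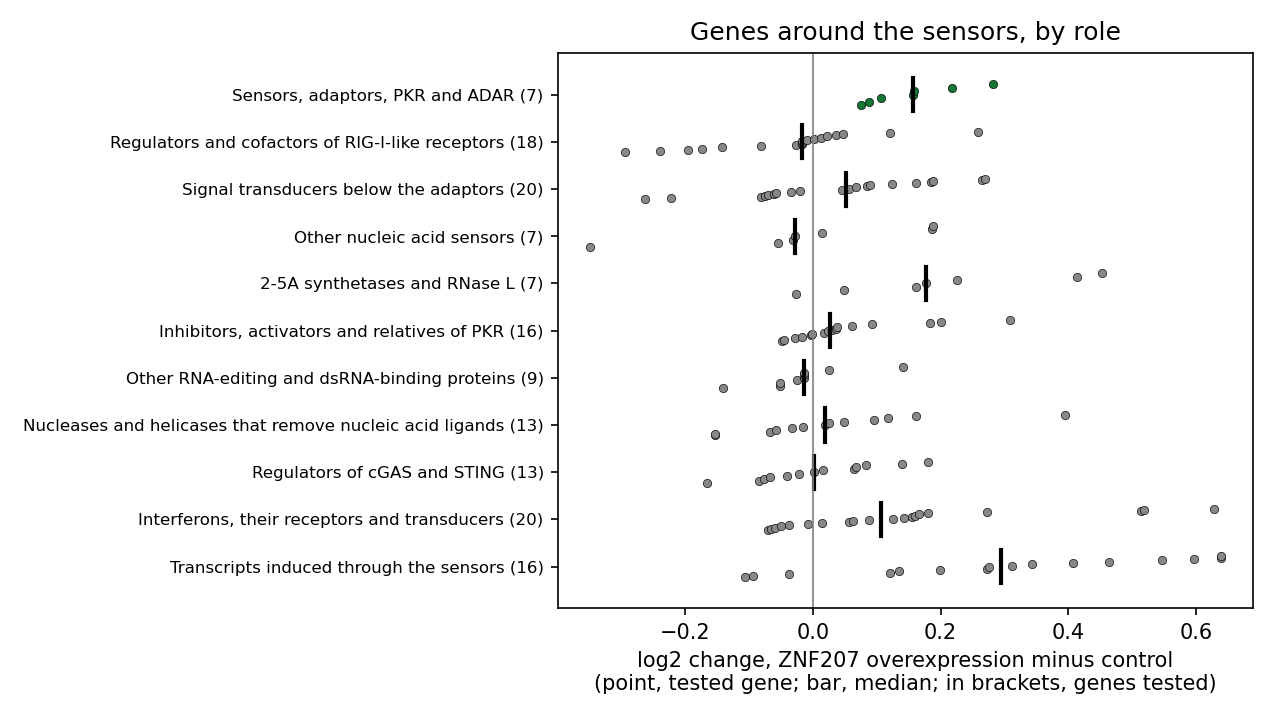
Log2 change (ZNF207 overexpression minus control, log2(FPKM + 1) scale) of every tested gene in the member set (top) and in 10 lists by role; points are genes, bars medians and brackets the number tested. The members lie between 0.08 and 0.28, lists of regulators and transducers scatter around 0, and the transcripts induced through the sensors have the highest median, 0.29.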

How the data were processed

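RNA from 3 control and 3 ZNF207 overexpression libraries was analysed from 1 table of FPKM values deposited by the authors, with 1 column per library. The genome build was hg38 and the tools were RSEM 1.3.1, DESeq2 1.4.5 and Bowtie2, per the submitters' processing notes; what each did, the annotation and the strandedness were not given in the sources used here. Columns were matched to samples by name alone (NC to control, 207 to overexpression, final digit to replicate). Of rows with 1 name the highest was kept. Values were compared as log2(FPKM + 1) for genes that reached 1 FPKM in 3 or more libraries, with limma 3.58.1 in R 4.3.3 (mean-variance trend, two-sided), p-values adjusted by Benjamini-Hochberg across the 13185 genes (threshold 0.05). This fit gave each adjusted p printed without another named setting, and was tested on simulated data. No whole-read steps were found: the commonest ratio between a pair of libraries was found in no more than 0.568% of low genes.

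The members and lists were chosen with earlier results of these data known. Named genes are ZNF207, every member, and of each list the called genes and the 3 of smallest p, and the 3 nearest profiles to each member without overlap; levels named beyond these (such as TBK1, IRF3, TICAM1, AIM2, the TLR genes, IFI16 and the interferon receptors) were chosen after their values were seen. A gene that this rule takes is not reported here. The listed symbols SKIC2 and STEEP1 had no row. Promoters are RefSeq's, positions GENCODE v29's; both are on GRCh38.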

Additional observations from a re-analysis of the deposited data

How the results depend on the processing

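Of 17 alternatives, none called any member, and the direction of each tested member held in all of them but 1: without control replicate 3, DHX58 had a log2 change of -0.0079 (its range over the left-out libraries was -0.0079 to 0.26). Across the same settings the estimates spanned 0.16 to 0.27 for IFIH1, 0.11 to 0.21 for RIGI, 0.16 to 0.42 for TLR3, 0.07 to 0.16 for EIF2AK2, 0.07 to 0.12 for MAVS and 0.04 to 0.11 for ADAR. The number of genes called among all tested, 28, was 4 without a filter, 64 with the filter at an FPKM of 5, 18 with TPM scaling, 17 with median-of-ratios scaling and 5 without a mean-variance trend, and ran from 4 to 36 when each library was left out in turn. Members higher without overlap numbered 2, beside 7.61% of all tested genes. That count became 5 with TPM scaling (1433 of 14327 genes) and 4 with median-of-ratios scaling (9.68% of genes). It was 2 to 6 when each library was left out in turn (10.1% to 16.3% of genes). The share of all genes was thus also higher in each of these settings.

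With the replicate number as a block, 145 genes were called and still 0 members (smallest adjusted p of a member 0.0793, for IFIH1). The labels do not say that the numbers pair libraries. Deviations of same-numbered libraries from their group means correlated, across genes, at 0.136, 0.00881 and 0.175 for replicates 1 to 3. Control replicates 1 and 3 correlated best with the overexpression library of their own number, but control replicate 2 with overexpression replicate 1 (0.0705). These correlations did not settle whether libraries were paired, and the main fit assumed no pairing. Under the block OAS2, OASL, SAMHD1, IFNL2, IFNL3, MX2 and DDX41 passed the threshold (adjusted p 0.0135 to 0.042). With the filter at an FPKM of 5, IFNL2, OASL and RSAD2 passed it (0.0302 to 0.0473), and IFNL2 also with library weights (0.0396). Without control replicate 1, OAS2, IFNL2 and IFNL3 passed it (0.0115 to 0.0355). Read depth is unknown, so the near-zero values of CGAS and STING1 carry no detection limit.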

Other observations

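Among the controls, IFNB1 and the interferon-lambda genes peaked in a different replicate from most tested members. This contrast was chosen after the values were seen. IFNB1, IFNL1, IFNL2 and IFNL3 were highest among the controls in replicate 1 (IFNL1 at 76.5, 67.4 and 63.3 FPKM in replicates 1 to 3), whereas IFIH1, RIGI, TLR3, EIF2AK2, MAVS and ADAR were highest in replicate 3. DHX58 was highest in control replicate 2. In the overexpression group IFNL1, IFNL2, IFNL3 and 4 of the 7 tested members were highest in replicate 1, and IFNB1 in replicate 2. IFNL1 stood at 94.4, 87.4 and 70.3 FPKM in the overexpression libraries, so its groups overlapped. IFNA1 and IFNA2, which are other type I interferons, reached at most 0.277 and 0.0692 FPKM.

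ZBP1, a sensor of left-handed double-stranded nucleic acid, did not pass the filter and was chosen here after its values were seen. It stood at 0.0540, 0.0551 and 0.145 FPKM in controls and at 0.734, 0.349 and 0.377 FPKM in overexpression libraries, without overlap. Values this low rest on few fragments, and the difference was not tested.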
